A study of Rattus norvegicus with 20 samples.

Results

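The respiratory chain was followed in cultures whose labels name neonatal cardiomyocytes, heart muscle cells of newborn rats. Each culture received for 72 h doxorubicin at 1 µM, PBS, both compounds, or histidine at 100 nM. Doxorubicin is an anthracycline used against cancer that is known for harming the heart, and PBS is the saline vehicle; each of the 4 groups had 5 libraries. Rows were chosen as all those on chromosome MT, plus nuclear rows whose deposited protein name begins with the name of a subunit or assembly factor of NADH dehydrogenase, succinate dehydrogenase, the cytochrome b-c1 complex, cytochrome c oxidase or ATP synthase. This gave 129 of the 15503 rows of the table. The mitochondrial genome contributed 32 rows, made up of 13 mRNAs, 2 rRNAs and 17 tRNAs. The nucleus contributed 97 rows: 31 subunits of complex I, 4 of complex II, 7 of complex III, 15 of complex IV and 14 of complex V, 9 assembly factors, and 17 further rows that carried a protein name already held by another row and may be copies or pseudogenes. Reads of near-identical copies can be split between such rows, so their values are uncertain. Of the 129 rows, 128 passed the filter on low counts; 1 mitochondrial tRNA, ENSRNOG00000032578, did not, with 684, 714 and 395 reads in PBS replicate 1, histidine replicate 1 and replicate 4 of both, and 2 reads in each of the other 17 libraries. Subunits with no row in the table are not analysed here.

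The respiratory chain of the inner mitochondrial membrane takes electrons from NADH at complex I and from succinate at complex II. They pass through ubiquinone to complex III and through cytochrome c to complex IV, where oxygen is reduced. Complexes I, III and IV pump protons, and complex V, the ATP synthase, uses the gradient. The mitochondrial genome encodes core subunits of every complex except complex II, together with the rRNAs and tRNAs of its own translation, and all remaining subunits come from nuclear genes. Heart muscle is among the tissues richest in this machinery and uses muscle isoforms of several complex IV subunits.

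Some nuclear rows were called (adjusted p under 0.05) in the same direction with the drug in both arms, with and without 1 library that stood apart. They were Cox6a2, Atpaf1 and Ndufaf4, which fell, and Ndufa10 and Sdhaf2, which rose. Other rows kept 1 direction in both arms without being called in each of these fits. Their upstream 250 bases are shown for that reason, from the RefSeq promoter table of build GRCr8, 5′ to 3′ and ending at the base before the annotated start. Capitals mark 3 motifs sought on both strands, the E-box CANNTG, the NRF1-type palindrome (GCGCA, any base, GCGC) and the ETS core CCGGAAG, none of which overlapped another in these windows. NRF1 and ETS-type factors are known regulators of many nuclear respiratory genes, and E-boxes are bound by muscle basic helix-loop-helix factors among others. The windows lie at chr1:192219717-192219966 on the minus strand, chr5:134502914-134503163 on the plus strand, chr5:43401545-43401794 on the plus strand, chr9:100489265-100489514 on the minus strand, and chr1:216592669-216592918 on the minus strand.
Cox6a2: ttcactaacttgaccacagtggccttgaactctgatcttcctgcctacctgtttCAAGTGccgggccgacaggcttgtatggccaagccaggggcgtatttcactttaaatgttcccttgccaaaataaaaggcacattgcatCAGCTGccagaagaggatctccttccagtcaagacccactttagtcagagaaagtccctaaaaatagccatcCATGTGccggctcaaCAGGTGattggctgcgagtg
Atpaf1: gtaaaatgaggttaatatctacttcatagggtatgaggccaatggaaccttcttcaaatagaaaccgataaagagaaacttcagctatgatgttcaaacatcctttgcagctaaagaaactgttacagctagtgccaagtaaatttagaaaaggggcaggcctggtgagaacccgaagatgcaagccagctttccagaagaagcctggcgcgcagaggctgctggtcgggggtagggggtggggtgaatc
Ndufaf4: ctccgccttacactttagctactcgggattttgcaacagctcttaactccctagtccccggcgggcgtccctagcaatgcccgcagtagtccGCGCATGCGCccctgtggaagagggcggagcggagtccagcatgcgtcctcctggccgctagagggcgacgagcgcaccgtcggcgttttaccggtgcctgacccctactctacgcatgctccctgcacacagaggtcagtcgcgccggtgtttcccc
Ndufa10: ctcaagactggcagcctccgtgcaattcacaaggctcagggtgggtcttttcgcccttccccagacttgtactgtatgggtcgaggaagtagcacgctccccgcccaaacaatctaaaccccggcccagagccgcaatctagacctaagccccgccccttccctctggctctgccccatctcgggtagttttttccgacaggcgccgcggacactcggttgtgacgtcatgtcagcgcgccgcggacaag
Sdhaf2: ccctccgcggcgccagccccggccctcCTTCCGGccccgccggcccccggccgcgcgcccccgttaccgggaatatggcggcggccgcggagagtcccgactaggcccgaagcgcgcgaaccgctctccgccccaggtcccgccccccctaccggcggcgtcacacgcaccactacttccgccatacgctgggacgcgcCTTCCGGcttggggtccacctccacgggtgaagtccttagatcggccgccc
The Cox6a2 window held 4 E-boxes, the Ndufaf4 window 1 NRF1-type palindrome, the Sdhaf2 window 2 ETS cores, and the other two held none of the 3. Promoters were matched by symbol for 71 of the 80 nuclear subunit and assembly factor genes. The NRF1-type palindrome stood in 15.5% of these 71, against 3.75% of all 33469 promoters in the table, and the ETS core in 28.2%, against 7.27%. An E-box stood in 47.9% of the 71 and 65.5% of all promoters. For the 71, 1 promoter per symbol was taken, while every entry was counted in the 33469. The median GC content of the windows was 56.8% for the 71 and 51.2% for all promoters, and its part in these contrasts was not tested. A match to such letters is a description of the window and not a measured site.

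The label of the cells was checked against marker genes. Tnnt2, the cardiac troponin T, averaged 36.5 ± 1.83 FPKM with doxorubicin and 109.7 ± 8.16 FPKM with PBS (SD, n = 5 each), and Col1a1, a collagen of fibroblasts, 4012 ± 1046 and 6671 ± 200.3 FPKM. FPKM is the authors' value scaled by gene length and by the reads of the library. No defining cardiomyocyte marker was at 0, and collagen RNA of fibroblasts was far more abundant per length. The 17 measured cardiomyocyte markers summed to 206 to 333 CPM (read counts scaled to library size with TMM factors) with doxorubicin and 1121 to 1262 CPM with PBS, and to 211 to 243 CPM with both compounds and 1010.4 to 1181 CPM with histidine. Of these 17, 15 were called lower and 0 higher with doxorubicin, and 17 lower with both compounds against histidine. Myl4, a myosin light chain, averaged 2.46 ± 0.830 FPKM with doxorubicin and 2.20 ± 0.225 FPKM with PBS. The 9 macrophage and leukocyte markers summed to 48.1 to 75.1 CPM with doxorubicin, 1698 to 1785 CPM with PBS, 47.8 to 62.9 CPM with both and 1657 to 2256 CPM with histidine. The 12 fibroblast markers summed to 71745 to 105212 CPM with doxorubicin and 108902 to 114471 CPM with PBS, and to 90732 to 105716 CPM with both compounds and 94947 to 110183 CPM with histidine, where the groups overlapped. They did not move together: 2 were called higher and 3 lower with doxorubicin (4 and 3 without replicate 4, which stands apart), and Fn1, the fibronectin, averaged 4485 ± 1121 FPKM with doxorubicin and 2936 ± 213 FPKM with PBS. The 8 smooth muscle and pericyte markers summed to 2730.5 to 5999 CPM with doxorubicin, 7503 to 8891 CPM with PBS, 4238 to 5317 CPM with both and 6295 to 9136 CPM with histidine. Of the 6 endothelial markers, 2 were called higher with doxorubicin and 3 lower, among them Pecam1, an adhesion molecule of these cells, at 0.771 ± 0.297 CPM with doxorubicin and 3.13 ± 1.33 CPM with PBS (SD, n = 5 each). Their sum was 23.8 to 35.2 CPM with doxorubicin, 18.4 to 27.5 CPM with PBS, 21.2 to 23.8 CPM with both and 19.7 to 29.1 CPM with histidine. Red blood cell genes were near 0: Hbb, a globin, had 7 to 57 reads with doxorubicin and 0 in every PBS library, 0 to 14 with both compounds and 0 in every histidine library, and Hba-a1 had 0 to 69, 0 to 1, 0 to 9 and 0 to 12 reads in the same order of groups. In such bulk cultures, fewer cells of a type and less RNA per cell cannot be told apart, and the part of these shifts in the respiratory results was not tested. Total counts per library were 53246205 to 83624651. Nothing in the labels says whether libraries of a group came from separate isolations, so p-values measure the spread between these libraries, which may be technical.

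Doxorubicin replicate 4 stood apart in the respiratory genes and is dealt with first. The 71 nuclear subunit genes took 0.461, 0.475, 0.504, 0.872 and 0.483% of the reads in doxorubicin libraries 1 to 5, and 0.476, 0.455, 0.472, 0.484 and 0.468% in the PBS libraries. With both compounds they took 0.466, 0.434, 0.482, 0.457 and 0.468%, and with histidine 0.482, 0.486, 0.482, 0.520 and 0.487%. Doxorubicin replicate 4 was thus the highest of all 20 libraries, while the other 4 doxorubicin libraries lay between 0.461% and 0.504%. At these depths the 95% binomial interval (Wilson) of these shares reached at most 0.0020 percentage points to either side, for counting error alone. For the shares of the mitochondrial mRNAs, given below, it reached at most 0.00497 percentage points.

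**Figure D1:**
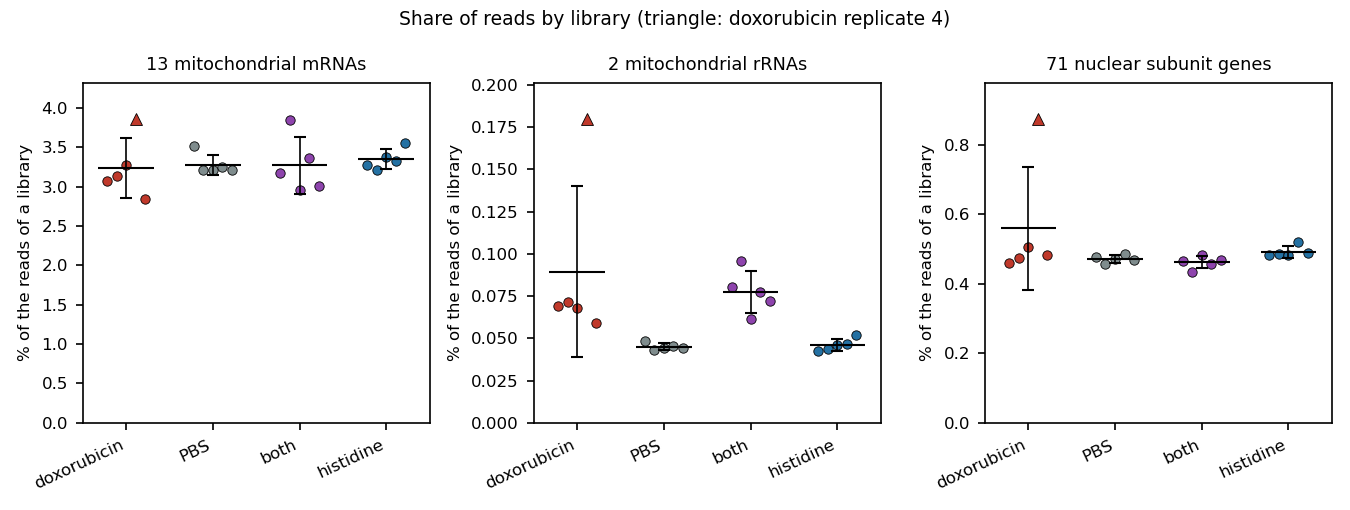
Share of each library's reads taken by the mitochondrial mRNAs, the mitochondrial rRNAs and the nuclear subunit genes (y axes in % from 0), for doxorubicin, PBS, both and histidine from left to right; points are libraries, bars are the mean and SD of 5. Doxorubicin replicate 4 (triangle) has 0.872% in the nuclear subunit genes, above all other libraries, and the rRNA share is higher in every drug-treated library than in every library without the drug.

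In doxorubicin replicate 4, 66 of the 71 nuclear subunit genes were above all 4 other doxorubicin libraries, and 45 were over 2 times their mean. The ratio had a median of 2.36 and reached 8.14. Cox6c, an accessory subunit of complex IV, had 40.1, 41.4, 44.98, 262 and 45.1 CPM in the doxorubicin libraries and 40.98, 38.97, 39.2, 42.9 and 41.8 CPM in the PBS libraries, so that without replicate 4 the groups overlapped. Atp5mk, the small DAPIT subunit of the ATP synthase, had 27.4, 36.4, 35.2, 275 and 35.9 CPM, against 37.6, 35.8, 32.9, 36.2 and 37.003 CPM. Short transcripts stood out in this library throughout the genome. Among all genes of at least 5 CPM, its median ratio to the other 4 was 2.81 for the 314 genes of up to 750 bases and 0.811 for the 5043 genes over 3000 bases. Among nuclear respiratory rows it was 3.50 for the 27 rows of up to 750 bases, 1.63 for the 20 rows of 1500 to 3000 bases and 1.92 for the 4 rows over 3000 bases. Whether length accounts for its difference was not tested. Counts and named rows below are given both ways where leaving it out changes a call or a direction. That includes both compounds against histidine, since this library enters the spread that all groups share in the fit.

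**Figure D2:**
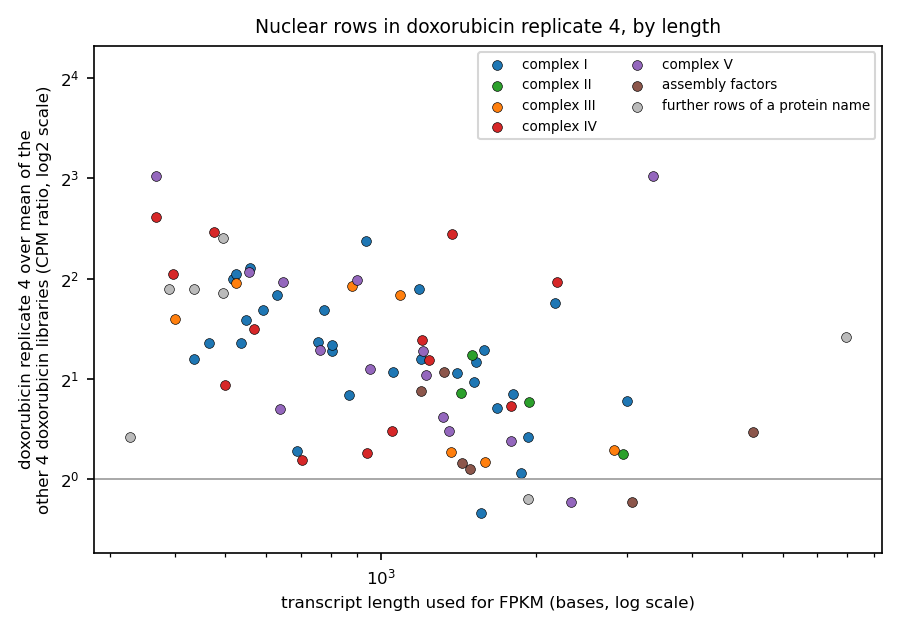
Ratio of doxorubicin replicate 4 to the mean of the other 4 doxorubicin libraries (y axis, CPM ratio on a log2 scale) against transcript length (x axis, log scale) for the 81 nuclear rows of at least 5 CPM, coloured by complex. Most rows lie above 1 and the shorter ones reach higher ratios (Spearman's rho -0.54 across these genes, which share 1 library and are not independent replicates).

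With all libraries, 25 of the 128 rows were higher and 8 lower with doxorubicin than with PBS, by edgeR's quasi-likelihood test at an adjusted p (Benjamini-Hochberg over all 15449 genes) under 0.05. These are 19.5% and 6.25% of the rows, beside 21.7% and 21.5% of all genes. The median log2 fold change was 0.28 over the rows and 0.052 over all genes. Without doxorubicin replicate 4 the balance turned: 8 rows were higher and 20 lower, 6.25% and 15.6%, beside 22.9% and 24.4% of all genes, with medians of -0.063 over the rows and 0.0071 over all genes. Of the 71 nuclear subunit genes, 62 had a positive log2 fold change with all libraries (median 0.30) and 30 without replicate 4 (median -0.037). Of the 25 rows called higher, 8 remained called without it and 4 became negative; of the 8 called lower, 6 remained. Leaving out 1 of PBS replicates 1 to 5 instead gave 12 to 15 rows called higher and 4 to 6 lower, beside 2945 to 3070 and 3074 to 3156 of all genes. Leaving out 1 of doxorubicin replicates 1, 2, 3 and 5 gave 34 to 37 rows higher and 5 to 9 lower, beside 3294 to 3383 and 3177 to 3310 of all genes. The groups did not overlap for 12 rows with all libraries, beside 31.1% of all genes, and for 28 rows without replicate 4, beside 41.8% of all genes.

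With both compounds against histidine alone, which shares no library with the first comparison, 5 rows were higher and 13 lower, 3.91% and 10.2% of the rows, beside 19.9% and 20.3% of all genes. The median log2 fold change was -0.11 over the rows and 0.015 over all genes, and 14 of the 71 nuclear subunit genes were positive. With an offset for gene length in the fit, an alternative chosen after seeing the data, the rows split into 11 higher and 8 lower and all genes into 5048 and 2509. Doxorubicin replicate 4 is in neither group here, but its values enter the spread that the 4 groups share in the fit; with it left out, 8 rows were called higher and 36 lower, 6.25% and 28.1%, beside 24.2% and 24.9% of all genes. For 24 rows the groups did not overlap, beside 35.2% of all genes. The 2 drug comparisons shared 4 rows called higher, which are 16% of the 25 and 80.0% of the 5, and 6 called lower, which are 75% of the 8 and 46.2% of the 13. Without doxorubicin replicate 4 they shared 5 called higher, 62.5% of each list, and 18 called lower, 90.0% of the 20 and 50% of the 36. The overlap over all genes was not counted, so these shares cannot be read as particular to the respiratory rows.

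**Figure D3:**
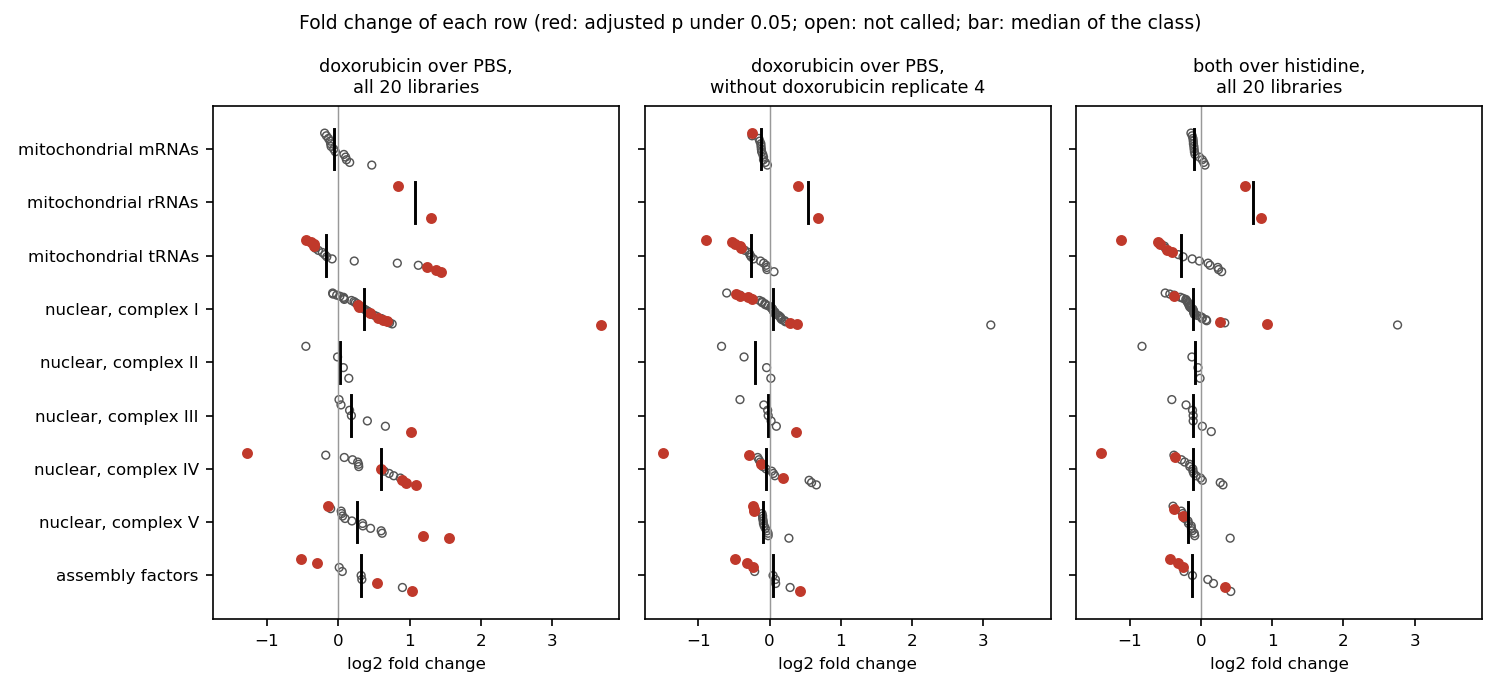
Log2 fold change (x axis) of each row by class (y axis), for doxorubicin over PBS with all libraries, the same without doxorubicin replicate 4, and both over histidine with all libraries; filled points have an adjusted p under 0.05, bars are class medians, and the 17 further rows of a protein name are not drawn. The median of complex IV is 0.60 in the left panel and -0.049 in the middle panel, while the rRNAs stay above 0 in all 3 panels.

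Among the 13 mRNAs of the mitochondrial genome, none was called in either drug comparison with all libraries. Their log2 fold changes were -0.19 to 0.47 for doxorubicin over PBS and -0.14 to 0.057 for both over histidine, with medians of -0.064 and -0.10. Together they took 3.07, 3.13, 3.27, 3.85 and 2.84% of the reads in doxorubicin libraries 1 to 5, and 3.51, 3.20, 3.20, 3.24 and 3.20% in PBS libraries. The 2 groups overlapped in this share. With both compounds the share was 3.17, 3.84, 2.95, 3.36 and 3.01%, and with histidine 3.27, 3.21, 3.38, 3.33 and 3.55%, again overlapping.

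Per length, the most abundant was Mt-co1, the catalytic subunit of complex IV, at 8481 FPKM with doxorubicin and 9091 FPKM with PBS, followed with PBS by Mt-co3 (4765) and Mt-co2 (3829), the other two core subunits of that complex, and by Mt-cyb (2453), the cytochrome b of complex III. Mt-nd6, the only one of the 13 on the light strand, was the lowest at 402 FPKM with doxorubicin and 435 FPKM with PBS. Mt-co1 had 13537, 12972, 12811, 18239.7 and 12424 CPM in the doxorubicin libraries, against 16469.8, 14561, 15393, 15723 and 14849 CPM in the PBS libraries. Replicate 4 was the highest of these 10 and the other 4 doxorubicin libraries were below every PBS library. Its log2 fold change was -0.14 ± 0.093 (SE), adjusted p = 0.246, with all libraries and -0.25 ± 0.060 (SE), adjusted p = 0.0018, without replicate 4, where it was the 1 mitochondrial mRNA called. For both over histidine its log2 fold change was -0.12 (adjusted p = 0.328).

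The largest positive value was that of Mt-nd3, a short complex I mRNA, which had 226, 241, 265, 795 and 203 CPM with doxorubicin and 266, 249, 243, 237 and 255 CPM with PBS. Only replicate 4 lay above the PBS range, and the log2 fold change was 0.47 (adjusted p = 0.169) with it and -0.10 (adjusted p = 0.449) without it. Among the other complex I mRNAs, log2 fold changes for doxorubicin over PBS were -0.064 for Mt-nd1, 0.10 for Mt-nd2, -0.12 for Mt-nd4, -0.10 for Mt-nd4l, -0.11 for Mt-nd5 and -0.17 for Mt-nd6. Mt-cyb, Mt-co2 and Mt-co3 were at -0.19, 0.11 and 0.16. The ATP synthase mRNAs Mt-atp6 and Mt-atp8 were at 0.079 and -0.041. Without replicate 4 all 13 were negative, from -0.25 to -0.030.

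**Figure D4:**
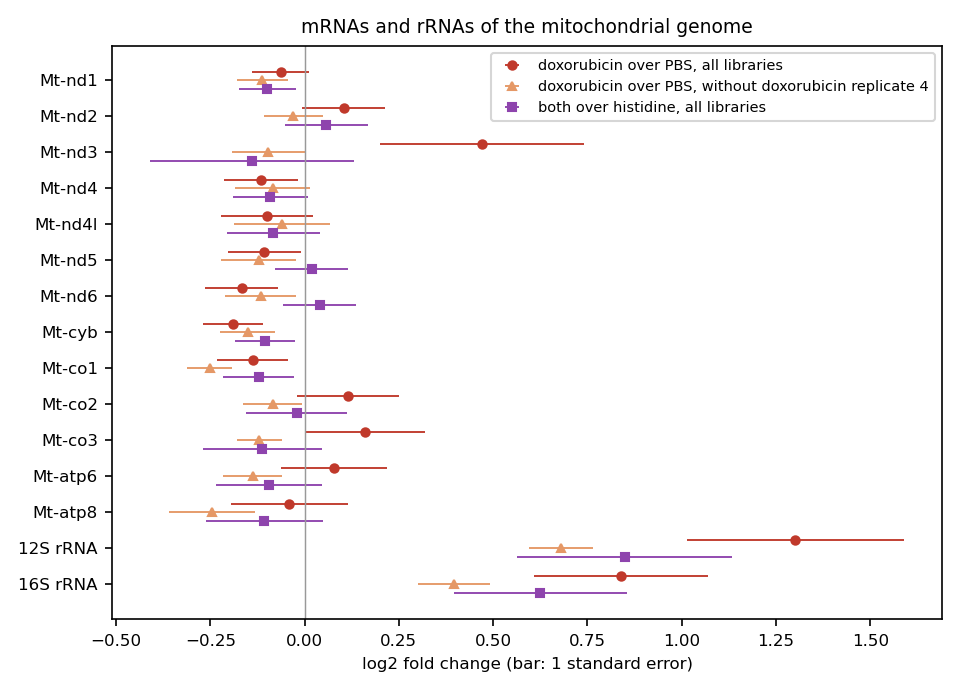
Log2 fold change with its standard error (x axis) of the 13 mRNAs and 2 rRNAs of the mitochondrial genome (y axis), for doxorubicin over PBS with and without doxorubicin replicate 4 and for both over histidine. The mRNAs lie near 0, and both rRNAs lie above 0 in all 3 fits, with 12S rRNA at 1.30, 0.68 and 0.85.

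Both mitochondrial rRNAs rose with the drug. The 12S rRNA of the small mitochondrial ribosomal subunit (ENSRNOG00000030478, chrMT:68-1025, build mRatBN7.2) had 209.7, 216, 212, 757 and 183 CPM with doxorubicin, against 139, 119.7, 129.9, 128 and 123 CPM with PBS. Every doxorubicin library was above every PBS library (log2 fold change 1.30 ± 0.29 (SE), adjusted p = 0.0011). Without replicate 4 the log2 fold change was 0.68 ± 0.085 (SE), adjusted p = 2.3e-06. With both compounds it had 237, 277, 188, 243 and 222 CPM, and with histidine 118, 122, 135, 133 and 139 CPM, without overlap (log2 fold change 0.85 ± 0.29 (SE), adjusted p = 0.023). The 16S rRNA of the large subunit (ENSRNOG00000043866, chrMT:1094-2664) had 467, 477, 429, 1232 and 391 CPM with doxorubicin and 356, 321, 325, 339.8 and 334 CPM with PBS (log2 fold change 0.84 ± 0.23 (SE), adjusted p = 0.0061). These groups did not overlap either, and without replicate 4 the log2 fold change was 0.40 ± 0.10 (SE), adjusted p = 0.002. In the libraries given both compounds it had 544, 644, 407, 511 and 480.1 CPM, against 316, 322, 327, 336 and 377 CPM with histidine (log2 fold change 0.62 ± 0.23 (SE), adjusted p = 0.036). Per 100 reads on mitochondrial mRNAs, the rRNAs had 2.07 to 4.66 reads with doxorubicin (median 2.25) and 1.34 to 1.39 with PBS (median 1.39). With both compounds they had 2.09 to 2.52, and with histidine 1.29 to 1.46. RNA was captured on oligo(dT) beads, so these values count rRNA that came through that step; its part in the difference was not tested.

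Of the 16 mitochondrial tRNA rows tested, 3 were called higher and 4 lower with doxorubicin, and 0 higher and 5 lower with both compounds against histidine. Among all genes, 21.7% were called higher and 21.5% lower with doxorubicin, and 19.9% and 20.3% with both compounds. Without doxorubicin replicate 4, these shares were 22.9% and 24.4%, and 24.2% and 24.9%. The counts below by complex and for assembly factors are to be read against the same shares. The tRNA rows are 64 to 75 bases long and strand is not stated to have been used in counting. Reads of overlapping longer transcripts therefore cannot be told apart from their own. The 3 called higher belong to a run of 4 minus-strand tRNA rows at chrMT:5010-5321 (mRatBN7.2), whose values in doxorubicin replicate 4 were 7.88 to 9.90 times the mean of the other 4 doxorubicin libraries. The row ENSRNOG00000032609 had 6.39, 6.56, 6.89, 57.6 and 4.83 CPM with doxorubicin and 6.47, 6.14, 6.54, 6.29 and 6.44 CPM with PBS, and its log2 fold change was 1.37 (adjusted p = 0.034) with replicate 4 and -0.048 (adjusted p = 0.766) without it. Without that library, 0 tRNA rows were called higher and 5 lower with doxorubicin, and 1 higher and 8 lower with both compounds; the 1 was the same row, at 0.29 (adjusted p = 0.033) for both over histidine.

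On the plus strand, 3 tRNA rows fell in both drug comparisons. The row ENSRNOG00000029070 had 2.64, 2.31, 2.45, 3.21 and 2.75 CPM with doxorubicin and 3.79, 3.12, 3.41, 3.87 and 4.18 CPM with PBS; only replicate 4 overlapped PBS (log2 fold change -0.46 ± 0.11 (SE), adjusted p = 0.003). For both over histidine its log2 fold change was -0.41 (adjusted p = 0.0073). ENSRNOG00000031667 and ENSRNOG00000032320 were at -0.34 and -0.35 for doxorubicin over PBS (adjusted p = 0.041 and 0.028), and at -0.48 and -0.57 for both over histidine (adjusted p = 0.0061 and 0.00085). These 2 rows were singled out after their values were seen.

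Complex I is the NADH dehydrogenase that opens the chain. Of its 31 nuclear subunit genes, 7 were called higher and 0 lower with doxorubicin, beside 21.7% and 21.5% of all genes. Without replicate 4, 2 were higher and 4 lower, beside 22.9% and 24.4% of all genes. The median log2 fold change of the 31 was 0.36 with replicate 4 and 0.043 without it. With both compounds against histidine, 2 were higher (Ndufa10 and Ndufb4) and 1 lower (Ndufs8), with a median of -0.11, and without doxorubicin replicate 4, 3 were higher and 7 lower; Ndufs8, a core iron-sulfur subunit named after its values were seen, was at -0.37 ± 0.12 (SE), adjusted p = 0.017. Ndufa10, an accessory subunit of the membrane arm (ENSRNOG00000016470, chr9:93007042-93042560), had 64.02, 66.4, 74.4, 70.3 and 64.9 CPM with doxorubicin and 59.7, 56.5, 54.9, 52.7 and 53.3 CPM with PBS. The groups did not overlap, and replicate 4 lay among the other doxorubicin libraries (log2 fold change 0.30 ± 0.060 (SE), adjusted p = 0.00046). Both compounds together gave 68.03, 72.9, 72.9, 68.4 and 64.1 CPM, against 57.8, 54.01, 55.8, 58.7 and 62.1 CPM with histidine, again without overlap (log2 fold change 0.26 ± 0.060 (SE), adjusted p = 0.0013). A second row with the Ndufa10 protein name was called higher with doxorubicin (log2 fold change 0.28 ± 0.074 (SE), adjusted p = 0.005) and not with both compounds (log2 fold change 0.11 ± 0.074 (SE), adjusted p = 0.244). Ndufs4, an accessory subunit of the matrix arm, had 13.4, 13.004, 13.1, 25.8 and 13.3 CPM with doxorubicin and 10.9, 10.1, 8.89, 10.4 and 10.5 CPM with PBS, without overlap (log2 fold change 0.63 ± 0.17 (SE), adjusted p = 0.0048); without replicate 4 it stayed called, at 0.38 (adjusted p = 0.0062). In the other drug comparison, both over histidine, it was at 0.33 (adjusted p = 0.123) with that library in the fit and 0.33 (adjusted p = 0.0094) without it. It is named here after its values were seen.

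Large rises in complex I by fold were in further rows with the protein name of Ndufs5, an accessory subunit, at 0.96 (adjusted p = 0.035) and 0.94 (adjusted p = 0.047), and at 0.33 and 0.042 without replicate 4, where neither was called. Ndufb9, an accessory subunit of the membrane arm, shows the reverse and was picked after its values were seen. It had 67.8, 71.4, 66.5, 155 and 68.4 CPM with doxorubicin and 85.7, 81.5, 81.04, 88.7 and 85.2 CPM with PBS. All doxorubicin libraries but replicate 4 were below every PBS library, so that the log2 fold change was 0.022 (adjusted p = 0.93) with it and -0.30 (adjusted p = 3.9e-05) without it. In the libraries given both compounds it had 73.8, 70.2, 68.4, 74.4 and 66.6 CPM, against 85.8, 83.8, 81.6, 91.6 and 88.9 CPM with histidine, with no overlap (log2 fold change -0.29 ± 0.17 (SE), adjusted p = 0.197); without doxorubicin replicate 4 in the fit it was called lower, at -0.29 (adjusted p = 3e-05).

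Complex II, the succinate dehydrogenase, also works in the citric acid cycle and is wholly nuclear-encoded. None of its 4 subunits was called in either drug comparison, with or without replicate 4. Sdha, the flavoprotein, averaged 157 ± 13.4 CPM with doxorubicin and 149 ± 1.75 CPM with PBS (log2 fold change 0.071 ± 0.059 (SE), adjusted p = 0.353). Sdhb, the iron-sulfur subunit, averaged 64.01 ± 17.9 and 57.8 ± 1.88 CPM (SD, n = 5 each; log2 fold change 0.15 ± 0.12 (SE), adjusted p = 0.341). The membrane anchors Sdhc and Sdhd lay on 2 levels within groups. Sdhc had 63.4, 17.7, 13.8, 96.1 and 67.7 CPM with doxorubicin, 60.8, 12.8, 61.9, 62.4 and 62.7 CPM with PBS, 62.3, 60.8, 62.5, 14.8 and 64.5 CPM with both and 60.1, 64.4, 15.9, 64.3 and 62.5 CPM with histidine. Low values occurred in 2 doxorubicin libraries and in 1 library of every other group. Sdhd had 34.7, 36.8, 35.6, 54.2 and 12.1 CPM with doxorubicin and 52.5, 45.01, 45.5, 49.4 and 45.1 CPM with PBS (log2 fold change -0.45 ± 0.36 (SE), adjusted p = 0.329), and 32.97, 4.88, 36.3, 31.1 and 33.1 CPM with both and 49.4, 50.01, 46.99, 49.5 and 49.7 CPM with histidine (log2 fold change -0.83 ± 0.37 (SE), adjusted p = 0.08). Doxorubicin replicate 5 and replicate 2 of both compounds were far below the rest, and with replicate 4 set aside no drug-treated library reached the range of its comparison group.

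For complex II, 2 assembly factors rose with doxorubicin. Sdhaf2, which attaches the flavin to Sdha, (ENSRNOG00000020646, chr1:207139112-207168616) had 64.4, 61.3, 60.3, 85.9 and 62.2 CPM with doxorubicin and 46.3, 42.2, 47.6, 49.4 and 44.8 CPM with PBS. Every doxorubicin library was above every PBS library, replicate 4 being the highest (log2 fold change 0.54 ± 0.083 (SE), adjusted p = 2.5e-05), and without it the log2 fold change was 0.43 ± 0.052 (SE), adjusted p = 1.6e-06. Both compounds together gave 61.1, 65.1, 65.8, 60.6 and 63.1 CPM, against 46.6, 52.7, 50.4, 47.2 and 51.6 CPM with histidine, without overlap (log2 fold change 0.34 ± 0.083 (SE), adjusted p = 0.0022). Sdhaf3, which acts on the iron-sulfur subunit, had 2.09, 2.13, 1.85, 11.7 and 2.28 CPM with doxorubicin and 2.01, 1.38, 2.28, 2.30 and 1.84 CPM with PBS; the rise (log2 fold change 1.03 ± 0.41 (SE), adjusted p = 0.047) rested on replicate 4, without which it was 0.085 (adjusted p = 0.725). Of the 9 assembly factors, 2 were called higher and 2 lower with doxorubicin, and 1 higher and 3 lower with both compounds; without doxorubicin replicate 4 the counts were 1 higher and 3 lower, and 2 higher and 4 lower. Sdhaf3 was at 0.42 (adjusted p = 0.452) for both over histidine with that library and 0.42 (adjusted p = 0.042) without it. Sdhaf1, a further complex II assembly factor, was called lower in both drug comparisons without doxorubicin replicate 4. It had 52.0 CPM in that library, against 22.6 to 28.0 CPM in the other doxorubicin libraries, and is named after its values were seen.

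The 2 assembly factors called lower with doxorubicin with all libraries act on other complexes. Atpaf1, which holds the beta subunit while the F1 head of the ATP synthase is built (ENSRNOG00000010169, chr5:129266404-129293556), had 14.5, 13.7, 13.7, 11.8 and 13.5 CPM with doxorubicin and 20.8, 19.6, 17.98, 17.4 and 20.9 CPM with PBS. All doxorubicin libraries were below all PBS libraries (log2 fold change -0.52 ± 0.078 (SE), adjusted p = 1.7e-05). With both compounds it had 14.03, 15.1, 15.8, 14.6 and 14.3 CPM, against 16.7, 18.3, 19.1, 17.4 and 21.1 CPM with histidine, again with no overlap (log2 fold change -0.33 ± 0.078 (SE), adjusted p = 0.0021). Ndufaf4, an assembly factor of complex I (ENSRNOG00000007506, chr5:38605153-38610336), had 10.5, 11.8, 12.1, 11.7 and 9.04 CPM with doxorubicin and 13.8, 13.3, 12.8, 14.3 and 13.4 CPM with PBS, without overlap (log2 fold change -0.30 ± 0.086 (SE), adjusted p = 0.009). In the libraries given both compounds it had 12.9, 12.4, 10.9, 12.7 and 11.7 CPM and with histidine 12.8, 14.5, 13.4, 15.5 and 16.04 CPM, overlapping in 1 histidine library (log2 fold change -0.25 ± 0.086 (SE), adjusted p = 0.024). Both stayed called without doxorubicin replicate 4, at -0.48 for Atpaf1 and -0.32 for Ndufaf4.

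Complex III passes electrons from ubiquinol to cytochrome c. Of its 7 nuclear subunits, 1 was called higher and 0 lower with doxorubicin, and 0 with both compounds against histidine. Without doxorubicin replicate 4, 1 was higher and 0 lower with doxorubicin, and 0 higher and 2 lower with both compounds. The medians were 0.18 and -0.11, and -0.019 for doxorubicin without replicate 4. The call was Uqcrh, the hinge protein that holds cytochrome c1, with 37.2, 42.9, 49.4, 166 and 41.2 CPM under doxorubicin and 34.02, 31.2, 33.01, 36.01 and 31.3 CPM under PBS. The groups did not overlap, and replicate 4 was more than 3 times the next library. Its log2 fold change was 1.02 ± 0.29 (SE), adjusted p = 0.0084, with replicate 4 and 0.37 ± 0.073 (SE), adjusted p = 0.00039, without it. With both compounds it averaged 39.96 ± 1.46 CPM and with histidine 36.1 ± 2.68 CPM (SD, n = 5 each; log2 fold change 0.15 ± 0.29 (SE), adjusted p = 0.736).

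Complex IV, the cytochrome c oxidase, is the complex with the most tissue isoforms. Of its 15 nuclear subunits, 4 were called higher and 1 lower with doxorubicin, and 1 higher and 3 lower without replicate 4. With both compounds against histidine, 0 were higher and 2 lower, and 0 and 4 without doxorubicin replicate 4. The medians were 0.60, -0.049 and -0.11 in that order. The fall with the largest fold among all 128 rows was that of Cox6a2, the heart and skeletal muscle isoform of subunit 6A (ENSRNOG00000019851, chr1:182788528-182789274), with 4 E-boxes in its upstream window. It had 1.93, 2.15, 2.16, 3.83 and 2.21 CPM with doxorubicin and 5.18, 5.41, 6.16, 6.17 and 6.80 CPM with PBS. The highest doxorubicin library, replicate 4, was below the lowest PBS library (log2 fold change -1.27 ± 0.16 (SE), adjusted p = 2.2e-06), and without it the log2 fold change was -1.49 ± 0.12 (SE), adjusted p = 4.1e-09. Both compounds together gave 1.91, 2.76, 2.46, 2.03 and 2.47 CPM, against 6.14, 6.04, 6.66, 5.62 and 6.26 CPM with histidine, without overlap (log2 fold change -1.40 ± 0.16 (SE), adjusted p = 7.2e-07). The summed cardiomyocyte markers were 206 to 333 CPM in the same doxorubicin libraries and 1121 to 1262 CPM in those of PBS, and their part in the fall was not tested.

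Cox6a1, the isoform of most other tissues, had 129, 129, 128, 385 and 157 CPM with doxorubicin and 132, 146, 160.0, 168 and 156 CPM with PBS. Only replicate 4 lay above the PBS range, and the row was not called with it (log2 fold change 0.28 ± 0.25 (SE), adjusted p = 0.372) or without it (log2 fold change -0.17, adjusted p = 0.331). Per length, Cox6a2 stood at 4.79 FPKM with doxorubicin and 11.4 FPKM with PBS, and Cox6a1 at 299.6 and 245 FPKM, so the muscle isoform was the lower of the pair in both groups.

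**Figure D5:**
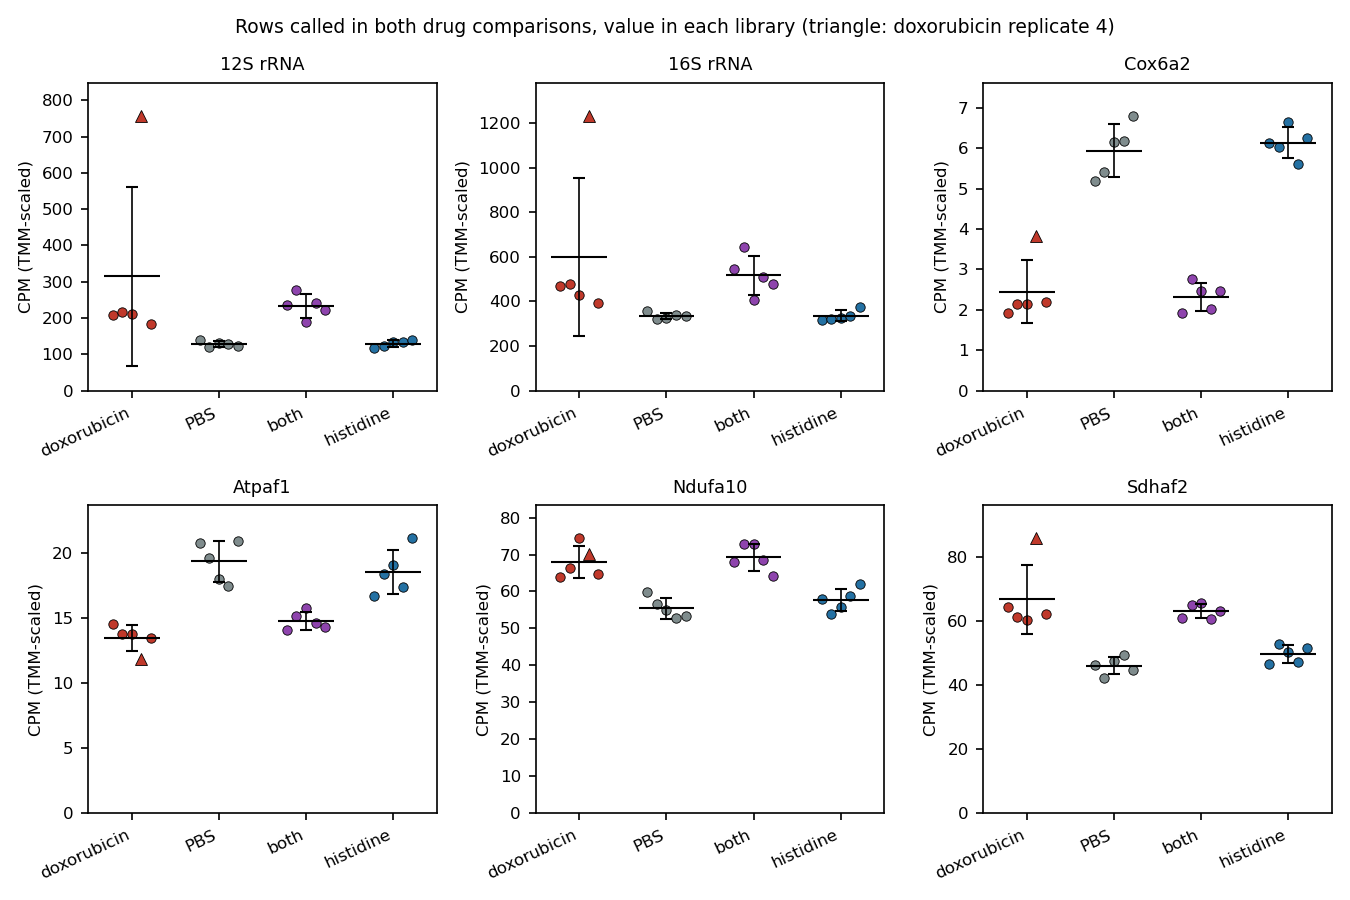
CPM (y axes, from 0) in each library of 6 rows called in both drug comparisons, for doxorubicin, PBS, both and histidine from left to right; bars are the mean and SD of 5 libraries and the triangle is doxorubicin replicate 4. Cox6a2 and Atpaf1 are lower, and the 2 rRNAs, Ndufa10 and Sdhaf2 higher, in every drug-treated library than in every library of its comparison group.

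Cox7a1 is the muscle isoform of subunit 7A and Cox7a2 the general one. Cox7a1 had 5.16, 3.94, 5.75, 10.2 and 4.43 CPM with doxorubicin and 2.32, 3.47, 3.62, 3.47 and 2.40 CPM with PBS, with no overlap and in the opposite direction to Cox6a2 (log2 fold change 0.95 ± 0.30 (SE), adjusted p = 0.015). Without replicate 4 it was at 0.66 (adjusted p = 0.057), and with both compounds against histidine at 0.020 (adjusted p = 0.967). Cox7a2 had 24.7, 30.6, 31.8, 119 and 27.7 CPM, against 26.04, 26.4, 23.5, 25.5 and 24.3 CPM with PBS (log2 fold change 0.89 ± 0.31 (SE), adjusted p = 0.024). Replicate 1 overlapped PBS, and without replicate 4 the log2 fold change was 0.19 ± 0.074 (SE), adjusted p = 0.038. A further row with the Cox7a2 protein name was the largest rise of the complex, at 1.27 (adjusted p = 0.026), and was at 0.23 (adjusted p = 0.394) without replicate 4. Cox6c was called only with doxorubicin replicate 4 (log2 fold change 1.09 ± 0.40 (SE), adjusted p = 0.032, against 0.074 without it). Cox7a2l, which takes part in joining complexes III and IV, was not called in either comparison (log2 fold changes 0.20 and -0.11), and neither was Cox6b1 (0.27 and -0.068).

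Cox4i2 and Ndufa4l2 are isoforms known to be raised by low oxygen, the first of subunit 4 and the second a relative of Ndufa4. Cox4i2 had 17.2, 17.3, 23.7, 22.95 and 21.9 CPM with doxorubicin and 11.03, 11.01, 21.6, 12.8 and 11.8 CPM with PBS. PBS replicate 3 was as high as the doxorubicin libraries while the other 4 PBS libraries were below all of them (log2 fold change 0.60 ± 0.22 (SE), adjusted p = 0.034), and without doxorubicin replicate 4 the adjusted p was 0.059 at a log2 fold change of 0.55. With both compounds it had 15.4, 19.6, 19.6, 14.9 and 16.3 CPM and with histidine 11.97, 9.06, 23.2, 13.8 and 11.2 CPM, histidine replicate 3 again being high (log2 fold change 0.31 ± 0.22 (SE), adjusted p = 0.286). Ndufa4l2 had the same outlying libraries, with 42.7, 45.7, 39.3, 55.2 and 56.8 CPM with doxorubicin and 21.02, 17.4, 54.96, 36.1 and 23.8 CPM with PBS (log2 fold change 0.64 ± 0.29 (SE), adjusted p = 0.081), and 36.4, 29.4, 40.3, 33.3 and 37.7 CPM with both and 21.8, 23.6, 56.5, 26.02 and 18.7 CPM with histidine (log2 fold change 0.27 ± 0.29 (SE), adjusted p = 0.502). Cox4i1, the general isoform, had 167, 172, 172, 448 and 174 CPM with doxorubicin and 189.6, 187, 176, 191 and 186 CPM with PBS. Its log2 fold change was 0.29 (adjusted p = 0.263) with replicate 4 and -0.12 (adjusted p = 0.042) without it, and was at -0.23 (adjusted p = 0.405) for both over histidine, where it was called lower without doxorubicin replicate 4 in the fit, at -0.23 (adjusted p = 0.00023). Ndufa4 was not called (0.71 and -0.11 in the 2 comparisons).

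The second complex IV fall with both compounds was Cox5a, a nuclear subunit on the matrix side, named after its values were seen. It had 54.3, 51.3, 52.2, 59.1 and 57.02 CPM with both and 70.8, 70.2, 72.2, 72.2 and 66.6 CPM with histidine, without overlap (log2 fold change -0.36 ± 0.086 (SE), adjusted p = 0.002). With doxorubicin it had 53.2, 55.99, 62.1, 79.8 and 56.8 CPM and with PBS 74.6, 67.6, 68.2, 70.2 and 67.2 CPM; replicate 4 alone lay above the PBS range, and the log2 fold change was -0.18 (adjusted p = 0.105) with it and -0.29 (adjusted p = 0.00026) without it.

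Complex V makes ATP from the proton gradient. Of its 14 nuclear subunits, 2 were called higher and 1 lower with doxorubicin, and 0 higher and 3 lower without replicate 4. With both compounds against histidine 0 were higher and 2 lower, and 10 of the 14 were called lower once doxorubicin replicate 4 was left out of the fit, from -0.12 to -0.39 on the log2 scale (Atp5f1a, Atp5f1b, Atp5f1c, Atp5f1d, Atp5mc2, Atp5mc3, Atp5mf, Atp5pb, Atp5pf and Atp5po). In that fit 24.9% of all genes were called lower. The medians of the 14 subunits were 0.27, -0.088 and -0.18 for doxorubicin, doxorubicin without replicate 4, and both. The calls higher were 2 small membrane subunits. Atp5mg, subunit g, had 20.9, 40.9, 23.97, 218 and 21.5 CPM with doxorubicin and 17.6, 18.9, 17.001, 37.04 and 20.5 CPM with PBS (log2 fold change 1.55 ± 0.53 (SE), adjusted p = 0.023); without replicate 4 the groups overlapped through PBS replicate 4, and it was at 0.27 (adjusted p = 0.437). Atp5mk was at 1.19 (adjusted p = 0.045) with replicate 4 and -0.089 (adjusted p = 0.397) without it.

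Atp5f1a, the alpha subunit of the F1 head, was the call lower, with 436, 453, 452, 384 and 452 CPM in doxorubicin libraries and 481, 465, 484, 479.6 and 489.8 CPM in PBS libraries. The groups did not overlap, replicate 4 being the lowest (log2 fold change -0.14 ± 0.055 (SE), adjusted p = 0.044), and the adjusted p was 0.055 at -0.10 without it. Atp5f1c, the gamma subunit that turns inside the head, had 98.2, 108, 94.1, 113 and 97.2 CPM with both compounds and 116, 113, 118, 133 and 127 CPM with histidine, without overlap (log2 fold change -0.24 ± 0.088 (SE), adjusted p = 0.032); it is named after its values were seen, and with doxorubicin it was at -0.11 (adjusted p = 0.342) with replicate 4 and -0.22 (adjusted p = 0.0051) without it. Atp5mc2 and Atp5mc3 encode the same proton-carrying c subunit. Atp5mc3 had 63.1, 86.6, 90.05, 84.4 and 88.5 CPM with both compounds and 108, 104, 108, 115 and 103 CPM with histidine, without overlap and with replicate 1 of both the lowest (log2 fold change -0.38 ± 0.11 (SE), adjusted p = 0.011). With doxorubicin it had 90.8, 87.9, 101, 143 and 93.8 CPM and with PBS 102, 100.3, 96.1, 96.7 and 107 CPM (log2 fold change 0.041 ± 0.11 (SE), adjusted p = 0.798). With all libraries Atp5mc2 was not called, at 0.10 (adjusted p = 0.52) for doxorubicin over PBS and -0.18 (adjusted p = 0.222) for both over histidine, and without doxorubicin replicate 4 it was called lower in the second, at -0.18 (adjusted p = 0.012).

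With histidine alone none of the 128 rows was called, and 0% of all genes were called by edgeR; 2 rows and 312 genes had an unadjusted p under 0.05, and DESeq2 called 5 genes, none of them a respiratory row. The smallest p was that of Ndufb4, an accessory subunit of complex I, with 4.68, 4.41, 4.54, 5.16 and 2.77 CPM with histidine and 9.72, 9.09, 12.9, 14.2 and 5.48 CPM with PBS. All histidine libraries were below all PBS libraries (log2 fold change -1.25 ± 0.37 (SE), adjusted p = 1.0 with edgeR). A second row with this protein name averaged 12.4 ± 0.806 CPM with histidine and 11.1 ± 1.33 CPM with PBS (SD, n = 5 each). Ndufb4 itself had 9.38, 9.77, 5.85, 11.3 and 4.88 CPM with both compounds and was called higher than with histidine (log2 fold change 0.93 ± 0.36 (SE), adjusted p = 0.048). With doxorubicin Ndufb4 had 12.1, 12.6, 12.6, 34.9 and 6.19 CPM. Next came the tRNA row ENSRNOG00000029070 (log2 fold change -0.28) and the second Ndufa10 row (0.14), both at an adjusted p of 1.0. Of the 71 nuclear subunit genes, 58 were positive with histidine, at a median log2 fold change of 0.056, against -0.0025 for all genes. These genes share the same libraries and are not independent, and the share of all genes that were positive was not counted.

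Both compounds against doxorubicin alone gave 0 called rows and 0% of all genes in edgeR, with 42 rows and 1940 genes at an unadjusted p under 0.05; DESeq2 called 20 genes, none of them a respiratory row. Of the 71 nuclear subunit genes, 68 were lower with both compounds, with a median log2 fold change of -0.41, against -0.0091 for all genes. Without doxorubicin replicate 4 the count was 49 of 71, the median -0.050, and 11 rows had an unadjusted p under 0.05. The smallest p belonged to Ndufa12, an accessory subunit of complex I, with 14.2, 14.9, 13.4, 14.1 and 12.1 CPM with both and 16.2, 16.5, 16.3, 48.8 and 16.02 CPM with doxorubicin (log2 fold change -0.73 ± 0.24 (SE), adjusted p = 0.393); without replicate 4 it was at -0.24 (adjusted p = 0.564). Atp5mc3 was at -0.32 and Cox7a2 at -0.88, both at an adjusted p of 0.393. The interaction, which asks whether the drug effect differs with histidine, called 0 rows and 0% of all genes, with 10 rows and 1060 genes at an unadjusted p under 0.05, and DESeq2 called 15 genes. Its smallest p-values belonged to Atp5mc3 (log2 difference -0.42), the third Ndufs5 row (-1.26) and Cox7a2 (-1.05), all at an adjusted p of 0.631, and at -0.28, -0.64 and -0.35 without doxorubicin replicate 4.

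Genes around the chain were read from lists chosen for this system. Of 14 electron carrier and ubiquinone synthesis genes, 5 were higher and 1 lower with doxorubicin, and 2 higher and 1 lower with both compounds. Pdss1, which makes the ubiquinone side chain, averaged 1.99 ± 0.267 CPM with doxorubicin and 3.56 ± 0.606 CPM with PBS (log2 fold change -0.84 ± 0.15 (SE), adjusted p = 0.00012), and was at -0.70 (adjusted p = 0.00076) for both over histidine. Coq10a, a ubiquinone-binding protein, averaged 13.3 ± 1.21 CPM with doxorubicin and 10.1 ± 0.430 CPM with PBS (log2 fold change 0.39 ± 0.085 (SE), adjusted p = 0.00098), and was at 0.38 (adjusted p = 0.0014) for both over histidine. Of 35 measured assembly factors and subunits with other protein names, 9 were higher and 1 lower, and 3 higher and 1 lower. Acad9, an assembly factor of complex I, averaged 43.6 ± 4.59 CPM with doxorubicin and 33.9 ± 2.21 CPM with PBS (log2 fold change 0.36 ± 0.070 (SE), adjusted p = 0.00029), and Lyrm7, which acts in complex III assembly, 5.70 ± 1.84 CPM with doxorubicin and 3.01 ± 0.963 CPM with PBS (log2 fold change 0.92 ± 0.24 (SE), adjusted p = 0.0038). For both over histidine they were at 0.21 (adjusted p = 0.02) and 0.76 (adjusted p = 0.014).

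Of 16 genes for transcription and upkeep of mitochondrial DNA, 4 were higher and 1 lower with doxorubicin, and 2 higher and 0 lower with both compounds. Twnk, the mitochondrial DNA helicase, averaged 18.4 ± 1.10 CPM with doxorubicin and 13.9 ± 0.702 CPM with PBS (log2 fold change 0.41 ± 0.062 (SE), adjusted p = 2.2e-05), and Polg, the catalytic subunit of the mitochondrial DNA polymerase, 31.8 ± 3.44 CPM with doxorubicin and 40.03 ± 2.37 CPM with PBS (log2 fold change -0.33 ± 0.089 (SE), adjusted p = 0.0049). For both over histidine they were at 0.31 (adjusted p = 0.0004) and -0.20 (adjusted p = 0.076). Of 9 measured nuclear regulators of respiratory genes, 0 were higher and 2 lower, and 0 higher and 1 lower. Ppargc1b, a coactivator of mitochondrial genes, averaged 0.889 ± 0.234 CPM with doxorubicin and 2.00 ± 0.434 CPM with PBS (log2 fold change -1.17 ± 0.23 (SE), adjusted p = 0.00041), and Pprc1, a related coactivator, 64.2 ± 8.59 CPM with doxorubicin and 74.4 ± 4.23 CPM with PBS (log2 fold change -0.21 ± 0.076 (SE), adjusted p = 0.03). For both over histidine they were at -1.15 (adjusted p = 0.00053) and -0.045 (adjusted p = 0.686).

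Of 13 citric acid cycle genes, 3 were higher and 1 lower with doxorubicin, and 2 higher and 2 lower with both compounds. Fh, the fumarase that follows succinate dehydrogenase in the cycle, averaged 40.9 ± 3.18 CPM with doxorubicin and 68.7 ± 2.92 CPM with PBS (log2 fold change -0.75 ± 0.058 (SE), adjusted p = 2e-09), and Dld, a shared subunit of the oxoacid dehydrogenases, 154 ± 35.4 CPM with doxorubicin and 114 ± 4.78 CPM with PBS (log2 fold change 0.44 ± 0.11 (SE), adjusted p = 0.0021). For both over histidine they were at -0.84 (adjusted p = 3.3e-10) and 0.19 (adjusted p = 0.165). Of 11 outer membrane and import genes, 2 were higher and 0 lower, and 0 in either direction with both compounds. Tomm22, a receptor of the outer membrane import pore, averaged 73.1 ± 22.6 CPM with doxorubicin and 56.5 ± 2.20 CPM with PBS (log2 fold change 0.37 ± 0.13 (SE), adjusted p = 0.022), and Timm44, which anchors the import motor, 36.2 ± 2.84 CPM with doxorubicin and 30.5 ± 2.86 CPM with PBS (log2 fold change 0.24 ± 0.086 (SE), adjusted p = 0.027). Without doxorubicin replicate 4, Timm44 was no longer called (adjusted p = 0.062), while the other 11 genes named from these lists stayed called. In both over histidine, 3 of the 12 were called only without it: Polg at -0.20 (adjusted p = 0.036), Dld at 0.19 (adjusted p = 0.0094) and Tomm22 at 0.12 (adjusted p = 0.025). Without that library, the counts higher and lower with doxorubicin were 4 and 1 for electron carriers and ubiquinone synthesis, 9 and 3 for further assembly factors and subunits, 3 and 1 for mitochondrial DNA genes, 0 and 2 for nuclear regulators, 3 and 1 for citric acid cycle and 1 and 1 for import. For both compounds they were 2 and 1 for electron carriers and ubiquinone synthesis, 6 and 4 for further assembly factors and subunits, 3 and 2 for mitochondrial DNA genes, 0 and 1 for nuclear regulators, 3 and 2 for citric acid cycle and 1 and 3 for import. The counts for these lists are to be read against the shares of all genes called higher and lower. With all libraries these were 21.7% and 21.5% with doxorubicin, and 19.9% and 20.3% with both compounds against histidine. Without doxorubicin replicate 4 they were 22.9% and 24.4% with doxorubicin, and 24.2% and 24.9% with both compounds.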

How the data were processed

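RNA from 20 libraries was captured on oligo(dT) beads and cDNA primed with random hexamers, per the labels' protocols. The deposited table gives the authors' read counts and FPKM values (scaled by gene length and library size) for each gene; the submitters' processing notes name Trimmomatic, a read trimmer, and the build mRatBN7.2. Which aligner and counter were run, and whether strand was used, is not given in the sources used here. Counts, as deposited, were tested with edgeR 4.0.16 (filterByExpr, TMM, quasi-likelihood F-test, 1 mean per group, all 20 libraries together, Benjamini-Hochberg over 15449 genes, threshold 0.05), and standard errors were taken as the log2 fold change divided by the square root of F. CPM values are TMM-scaled, and FPKM was used only to compare levels between genes. The script was tested on simulated data with 200 changed genes. R was 4.3.3 and Python 3.11.15; figures were drawn with matplotlib 3.10.9. No pair of libraries within a group agreed within sampling noise.

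Alternatives were DESeq2 1.42.0 as test and as scaling, limma 3.58.1 on log2(FPKM + 1) and log2(FPKM + 0.1), no filter, mitochondrial rows left out of the scaling, 2 groups alone, each library left out, the replicate number as a block and, chosen after seeing the data, a gene length offset and the block without doxorubicin replicate 4. Named rows are all mitochondrial mRNAs, up to 3 called rises and falls per complex with doxorubicin, isoform pairs, the succinate dehydrogenase subunits, the 3 smallest p-values in the comparisons of histidine, and 2 genes per pathway list; 1 row that this rule picks is not reported here. The pathway lists cover electron carriers, further assembly factors, mitochondrial DNA, nuclear regulators, the citric acid cycle and import. Members, lists and markers were chosen with earlier results of these data known.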

Additional observations from a re-analysis of the deposited data

Results flagged for a closer look

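Each value here lay apart from the other 4 libraries of its group, its gap to the nearest of them being over 0.71 of the group's range (Dixon's 95% value for 5 samples). Several of the rows examined were named for rises that rested on doxorubicin replicate 4, and the rows share the same libraries. The counts are therefore descriptive and cannot be set against chance. Of 204 groups examined, 51 held a library set apart in this way. Doxorubicin replicate 4 accounted for 32 of these, among the 51 doxorubicin groups examined. It had 0.872% of its reads in the nuclear subunit genes, against 0.461% to 0.504% in the other doxorubicin libraries, and 0.179% in the mitochondrial rRNAs, against 0.0589% to 0.0716%. Among mitochondrial transcripts it had 1723 CPM for Mt-nd2 (the others 1086 to 1263), 795 CPM for Mt-nd3 (the others 203 to 265), 18239.7 CPM for Mt-co1 (the others 12424 to 13537), 4718 CPM for Mt-co2 (the others 2453 to 2911), 7804 CPM for Mt-co3 (the others 3448 to 3945), 1172 CPM for Mt-atp6 (the others 559.7 to 696), 757 CPM for 12S rRNA (the others 183 to 216) and 1232 CPM for 16S rRNA (the others 391 to 477). Among subunits and assembly factors of complexes I to III it had 2.50 CPM for Ndufs5 row 3 (the others 0.664 to 0.700), 24.6 CPM for Ndufs5 row 2 (the others 4.07 to 5.18), 11.7 CPM for Sdhaf3 (the others 1.85 to 2.28), 85.9 CPM for Sdhaf2 (the others 60.3 to 64.4), 166 CPM for Uqcrh (the others 37.2 to 49.4), 95.5 CPM for Sdhb (the others 52.3 to 59.6), 34.9 CPM for Ndufb4 (the others 6.19 to 12.6) and 48.8 CPM for Ndufa12 (the others 16.02 to 16.5). In complex IV, with Ndufa4, it had 23.6 CPM for Cox7a2 row 2 (the others 2.64 to 5.29), 262 CPM for Cox6c (the others 40.1 to 45.1), 3.83 CPM for Cox6a2 (the others 1.93 to 2.21), 448 CPM for Cox4i1 (the others 167 to 174), 385 CPM for Cox6a1 (the others 128 to 157), 30.01 CPM for Cox6b1 (the others 14.2 to 17.2), 119 CPM for Cox7a2 (the others 24.7 to 31.8), 236 CPM for Cox7a2l (the others 91.1 to 110.2) and 109.8 CPM for Ndufa4 (the others 26.6 to 32.6). In complex V it had 218 CPM for Atp5mg (the others 20.9 to 40.9), 275 CPM for Atp5mk (the others 27.4 to 36.4), 237 CPM for Atp5mc2 (the others 142 to 148) and 143 CPM for Atp5mc3 (the others 87.9 to 101). It was low in 1 gene, Atp5f1a, at 384 CPM, against 436 to 453 CPM. In every gene of this group but Atp5f1a the library was the highest of the 5.

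The other 19 came from 10 libraries. Replicate 1 of both compounds was low, with 63.1 CPM for Atp5mc3 (the others 84.4 to 90.05). Replicate 2 of both compounds was high, with 1680.0 CPM for Mt-nd1 (the others 1329 to 1426), 2645 CPM for Mt-nd4 (the others 1733 to 1817), 413 CPM for Mt-nd4l (the others 248 to 274) and 1966 CPM for Mt-nd5 (the others 1276 to 1431), and was low, with 4.88 CPM for Sdhd (the others 31.1 to 36.3). Replicate 4 of both compounds was low, with 14.8 CPM for Sdhc (the others 60.8 to 64.5). Histidine replicate 3 was high, with 56.5 CPM for Ndufa4l2 (the others 18.7 to 26.02), and was low, with 15.9 CPM for Sdhc (the others 60.1 to 64.4) and 46.99 CPM for Sdhd (the others 49.4 to 50.01). Histidine replicate 4 was high, with 5.68 CPM for Cox7a2 row 2 (the others 3.25 to 3.80) and 206 CPM for Cox4i1 (the others 191 to 195), and had 0.520% of its reads in the nuclear subunits, against 0.482% to 0.487% in the others. Histidine replicate 5 was high, with 1664 CPM for Mt-nd5 (the others 1387 to 1454). PBS replicate 1 was high, with 274 CPM for Mt-nd6 (the others 235 to 245), and had 3.51% of its reads in the mitochondrial mRNAs, against 3.20% to 3.24% in the others. PBS replicate 2 was low, with 12.8 CPM for Sdhc (the others 60.8 to 62.7). PBS replicate 3 was high, with 21.6 CPM for Cox4i2 (the others 11.01 to 12.8). PBS replicate 4 was high, with 37.04 CPM for Atp5mg (the others 17.001 to 20.5).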

How the results depend on the processing

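Calls depended most on doxorubicin replicate 4. Over fits leaving out 1 library each, rows called with doxorubicin against PBS were 8 to 37 higher and 4 to 20 lower, and all genes called were 6028 to 7298; 8 and 20 came without doxorubicin replicate 4, and 4 or 5 lower without PBS replicates 3, 4 or 5 or doxorubicin replicates 1 or 5. With both compounds against histidine they were 2 to 8 higher, 10 to 36 lower and 5660 to 7594 genes; 8 and 36 came without doxorubicin replicate 4, 2 higher without replicate 2 of both, and 3 higher without histidine replicates 1, 2 or 4 or replicates 1 or 4 of both. Genes called ranged from 0 to 1 for histidine against PBS, from 0 to 6 for both against doxorubicin and from 0 to 2 for the interaction, with 0 rows of the respiratory chain in each.

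Deviations of same-numbered libraries correlated at r = -0.084 to 0.31. Libraries correlated best with their own number in 1 of 5 pairs for doxorubicin and PBS and in 2 for both and histidine. For histidine and PBS it was 1, and for both and doxorubicin 4. Whether the replicate numbers pair the libraries in part is not settled by these values. With the replicate block, 13 of the 128 rows were higher with doxorubicin, beside 3193 of all 15449 genes. With the block and without doxorubicin replicate 4, 11 were higher and 17 lower, beside 3394 and 3651 of all 15454 genes. In that fit 32 rows were lower with both compounds against histidine, beside 3819 of all genes, and 1 row and 2 genes were called for histidine. Fitting 2 groups alone gave 10 rows higher and 5 lower with doxorubicin, beside 2579 and 2881 of all 15325 genes. With both compounds against histidine it gave 28 rows lower, beside 3639 of all 15350 genes. DESeq2 called 5 genes for histidine, 20 for both against doxorubicin and 15 for the interaction, and limma on log2(FPKM + 1) called 1 for histidine. The length offset gave 35 rows higher and 9 lower with doxorubicin, beside 5465 and 2634 of all genes. With both compounds against histidine it gave 11 rows higher and 8 lower, beside 5048 and 2509 of all genes. It called 1 gene each for histidine and for both against doxorubicin. The median of all genes shifted to 0.16 with doxorubicin and 0.15 with both.

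Under these alternatives the 101 named results had 3027 values. A change of sign in a row called in neither fit was counted as unchanged, as for Mt-nd3 and Cox6a1 without doxorubicin replicate 4. On that count 2812 were unchanged, 163 lost the call, 49 gained one and 3 turned round. These 3 were Atp5mk at -0.089 without doxorubicin replicate 4 and -0.099 without it and with the block, and Cox4i1 at -0.12 without doxorubicin replicate 4 (ranges over the libraries left out -0.089 to 1.41 and -0.12 to 0.37); beyond the library left out, the cause was not tested. With 5 libraries a group and strand not stated, small shifts and overlapping rows are least certain.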
